A study of Mus musculus with 8 samples.

Results

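Ifng, Ifna2, Cxcl9, Cxcl10 and Cxcl11 are the 2 interferons and the 3 CXCR3 ligand chemokines on a quantitative PCR array that was run on mouse liver. They were picked by symbol, and they are 5 of the 84 cytokine and chemokine genes of the array, which also holds 5 housekeeping genes. The study asked how innate lymphocytes act in the fatty liver after ischemia-reperfusion injury (IRI), using mice that lack T and B cells (Rag1-/-) and mice that in addition lack the transcription factor T-bet (Rag1-Tbet DKO, a cross of Rag1-/- with Tbx21-/-). The 8 conditions were ND Rag1-/- non-IRI, ND Rag1-/- IRI, HFD Rag1-/- non-IRI, HFD Rag1-/- IRI and the same 4 conditions of Rag1-Tbet DKO, so every group, the controls included, lacked Rag1.

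ND was standard chow, started at 4 weeks of age and kept for 12 to 15 weeks. HFD was a lard-based diet with 60% of its energy from fat, started at 5 to 7 weeks of age and kept for 12 weeks. IRI was 45 min of partial warm ischemia followed by 24 h of reperfusion, after which the left lobe was collected, while non-IRI mice had a laparotomy only and the entire liver was collected. For non-IRI mice the methods name no wound closure and no 24 h interval before collection. Injury therefore cannot be told apart from the surgery around it, that interval or the part of the liver taken. T-bet is missing in all cells of the DKO, so the genotype comparison is not limited to one innate lymphocyte. Each condition was 1 pool of RNA from at least 3 livers, read in 1 well per gene. There was thus no replicate error, no difference below was tested, and values are compared with the array around them instead.

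Interferon-gamma, the product of Ifng, is made mainly by natural killer (NK) cells, type 1 innate lymphoid cells (ILC1s) and T cells, and T-bet is a known activator of its transcription. Cxcl9 is a gene that responds chiefly to it. Cxcl10 and Cxcl11 respond to interferon-gamma and also to type I interferons such as the product of Ifna2, and Cxcl10 further responds to NF-kB. All 3 chemokines act on CXCR3, a receptor of NK cells and activated T cells, and draw such cells into inflamed liver.

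The 3 ligand genes lie together on mouse chromosome 5, with 1 other gene, Art3, between Cxcl9 and Cxcl11. Ifng is on chromosome 10. Ifna2 is on chromosome 4 with all 13 protein-coding Ifna genes of the annotation, which are close copies of each other, so that its well may also have read other Ifna transcripts. In the reference assembly GRCm38.p6, from C57BL/6J, Cxcl11 is annotated as a transcribed pseudogene with no protein, and its values below are those of a transcript. Promoters, taken from RefSeq (GRCm38.p6) as 250 bases before to 50 bases after the start of the gene, were found for 4 of the 5 genes. Those of Cxcl9 and Cxcl10 are shown because these neighbouring ligands parted most in the data. Capitals mark matches, on either strand, to the core of the interferon-stimulated response element (GAAANNGAAA) and to an NF-kB-like 9-base word (GGGANTTCC). The 2 motifs did not overlap. Both sequences are on the minus strand and are written 5′ to 3′.
Cxcl9, chr5:92328030-92328329: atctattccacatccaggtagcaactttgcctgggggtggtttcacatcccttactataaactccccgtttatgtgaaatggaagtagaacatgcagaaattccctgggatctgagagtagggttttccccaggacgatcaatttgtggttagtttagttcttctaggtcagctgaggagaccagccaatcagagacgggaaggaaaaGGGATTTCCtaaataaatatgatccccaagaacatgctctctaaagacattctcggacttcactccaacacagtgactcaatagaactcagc
Cxcl10, chr5:92348840-92349139: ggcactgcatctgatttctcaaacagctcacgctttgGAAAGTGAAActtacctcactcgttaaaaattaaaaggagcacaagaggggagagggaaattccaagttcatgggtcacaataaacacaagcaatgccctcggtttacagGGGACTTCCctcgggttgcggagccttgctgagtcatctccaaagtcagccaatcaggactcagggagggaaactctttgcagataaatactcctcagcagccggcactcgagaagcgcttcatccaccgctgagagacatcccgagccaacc

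The Cxcl10 window held the interferon-stimulated element core 213 bases before the start and the NF-kB-like word 103 bases before it. The Cxcl9 window held the NF-kB-like word 42 bases before the start, and the interferon-stimulated core was not among its letters. Of 32851 mouse promoters of the same length, 3.44% held the core and 1.68% the NF-kB-like word. In the other promoters, the core occurred 239 and 164 bases before the start of Ifna2 and not in the Ifng window. These motifs were picked with the windows in view and are descriptions of letters only.

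Signals are threshold cycles (Ct), where 1 cycle less stands for about 2-fold more cDNA and Ct 35 was the detection limit. Levels are given as minus ΔCt, the mean Ct of Actb and Hsp90ab1 minus the Ct of the gene, on a log2 scale, so a level nearer 0 is a higher level. Levels of different genes are not set against each other, since each well has its own primers. Of 712 wells 79 were at the limit, 6 to 17 of the 84 array genes per pool. The mean Ct of the 2 references ran from 15.04 to 16.46, while the median Ct of the 62 array genes below the limit in all pools ran from 23.93 to 26.21 and was highest in ND Rag1-/- non-IRI. The liver genes Hc (complement C5; Ct 14.78 to 16.74) and Thpo (thrombopoietin; Ct 20.73 to 22.42) were strong in all pools. Neither Rag1, Tbx21 nor Cxcr3 was on the array, so that the deletions and the receptor were not checked. In ND Rag1-Tbet DKO non-IRI, Il3 gave Ct 9.36 against the limit in the other 7 pools and Cd40lg gave Ct 11.44 against the limit in 5 pools. Counts of the 5 genes that rest on this pool are given without it among the processing alternatives.

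Ifng was a rare transcript in every liver pool. Its Ct was 31.19 in ND Rag1-/- non-IRI, 30.62 in ND Rag1-/- IRI, 28.30 in HFD Rag1-/- non-IRI and 29.87 in HFD Rag1-/- IRI. In Rag1-Tbet DKO its Ct was 29.38 in ND non-IRI, 31.44 in ND IRI, 30.35 in HFD non-IRI and 30.26 in HFD IRI. As a level, Ifng was highest in HFD Rag1-/- non-IRI (-13.08), then in HFD Rag1-/- IRI (-13.96) and ND Rag1-Tbet DKO non-IRI (-14.34), and lowest in ND Rag1-/- non-IRI (-15.61). The remaining pools lay between -14.98 and -14.60. Ifng was thus measured in all 4 pools without T-bet. With Actb and Hsp90ab1 its levels there fell within the range of the Rag1-/- pools. When scaled to the array's median Ct, Ifng had -6.39 in ND IRI and -5.71 in HFD IRI of the DKO. Both lay below the lowest Rag1-/- pool in that scaling, ND IRI (-5.44). In bulk liver, fewer cells that make a transcript and less of it per cell cannot be told apart.

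Ifna2, a type I interferon, had the widest range of the 5 genes, from the limit in 1 pool to Ct values below those of Ifng in 3 IRI pools. Its Ct was at the limit of 35 in ND Rag1-/- non-IRI, 28.64 in ND Rag1-/- IRI, 31.21 in HFD Rag1-/- non-IRI and 33.80 in HFD Rag1-/- IRI. In Rag1-Tbet DKO it was 31.76 in ND non-IRI, 28.74 in ND IRI, 32.74 in HFD non-IRI and 29.24 in HFD IRI. Its levels formed a high group of 3 IRI pools, -12.28 in ND Rag1-Tbet DKO, -12.83 in ND Rag1-/- and -13.57 in HFD Rag1-Tbet DKO. The other measured pools had -15.99 to -17.89, and HFD Rag1-/- IRI, the lowest of these, lay apart from the other injured livers. ND Rag1-/- non-IRI had at most -19.42, so the levels spanned at least 141-fold.

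Cxcl9, the ligand tied most closely to interferon-gamma, had Ct 26.67 in ND Rag1-/- non-IRI, 27.36 in ND Rag1-/- IRI, 24.81 in HFD Rag1-/- non-IRI and 26.60 in HFD Rag1-/- IRI. In Rag1-Tbet DKO its Ct was 25.88 in ND non-IRI, 29.25 in ND IRI, 27.03 in HFD non-IRI and 28.35 in HFD IRI. Like Ifng, it had its highest level in HFD Rag1-/- non-IRI (-9.59). Its lowest levels were in the injured livers without T-bet, -12.79 on ND and -12.69 on HFD, more than 1 cycle below the next pool, ND Rag1-/- IRI (-11.55). The levels spanned 9.19-fold.

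Cxcl10, a ligand made by many liver cells under interferon, was the chemokine of the 3 with the widest range, 11.6-fold. Its Ct was 22.59 in ND Rag1-/- non-IRI, 23.91 in ND Rag1-/- IRI, 21.47 in HFD Rag1-/- non-IRI and 21.81 in HFD Rag1-/- IRI. In Rag1-Tbet DKO its Ct was 22.04 in ND non-IRI, 24.23 in ND IRI, 22.90 in HFD non-IRI and 20.23 in HFD IRI. HFD Rag1-Tbet DKO IRI, one of the 2 pools with the least Cxcl9, had the most Cxcl10 (-4.57). The 2 HFD Rag1-/- pools followed (-5.90 after IRI and -6.25 without), and the 2 ND pools after IRI were lowest (-8.10 in Rag1-/- and -7.77 in DKO).

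Cxcl11 had a narrower range, at whose lower end 1 pool stood apart. Its Ct was 29.45 in ND Rag1-/- non-IRI, 27.84 in ND Rag1-/- IRI, 26.54 in HFD Rag1-/- non-IRI and 27.72 in HFD Rag1-/- IRI. In Rag1-Tbet DKO its Ct was 26.79 in ND non-IRI, 28.95 in ND IRI, 27.30 in HFD non-IRI and 28.26 in HFD IRI. Levels ran from -11.32 in HFD Rag1-/- non-IRI to -12.60 in HFD Rag1-Tbet DKO IRI in 7 pools, and ND Rag1-/- non-IRI, the pool lowest in Ifng and Ifna2 too, stood apart at -13.87. Ifng spanned 5.78-fold and Cxcl11 5.86-fold, against a median range of 2.86 on the log2 scale over the 62 genes. By width of range Cxcl10 was 20th, Cxcl9 25th, Cxcl11 35th and Ifng 36th of the 62, so none of the 4 was among the array's most variable genes.

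**Figure D1:**
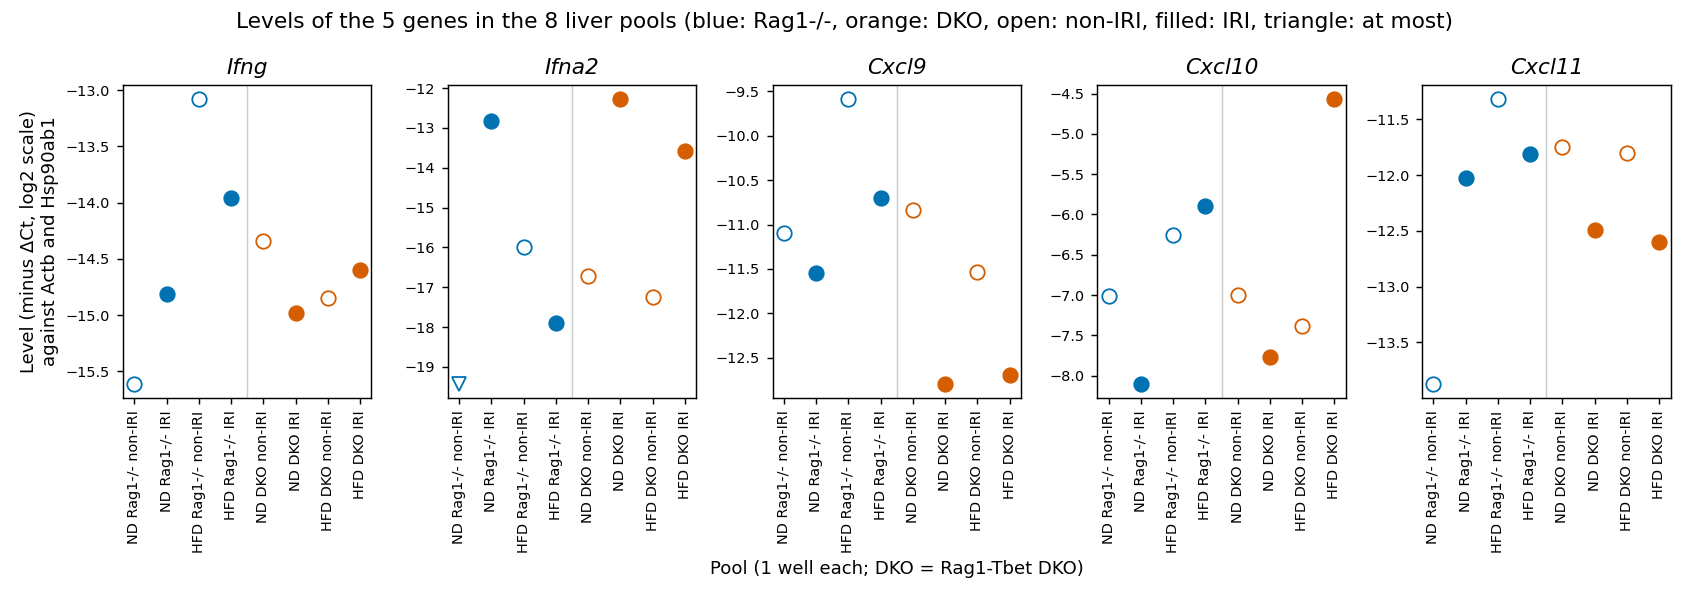
Level (minus ΔCt against Actb and Hsp90ab1, log2 scale, y axis with its own scale in each panel) of the 5 genes in the 8 pools (x axis), 1 well per point. Blue is Rag1-/- and orange Rag1-Tbet DKO, open symbols are non-IRI and filled symbols IRI, and the triangle is an upper bound. Ifng and Cxcl9 were highest in HFD Rag1-/- non-IRI, while Cxcl10 was highest in HFD Rag1-Tbet DKO IRI.

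The first comparison asked what IRI did with diet and genotype held. The mean Ct of Actb and Hsp90ab1 was higher after IRI in each pair of pools. In Rag1-/- it went from 15.58 to 15.81 on ND and from 15.22 to 15.905 on HFD. In DKO it went from 15.04 to 16.46 on ND and from 15.505 to 15.665 on HFD. Whether the references themselves changed with IRI was not tested. The 5 genes did not move as one after injury. Ifna2 was higher in 3 of the 4 pairs of pools, and Cxcl9 was lower in all 4, past 2-fold in 3 of them. Ifng differed by less than 2-fold in all 4 with Actb and Hsp90ab1. It did not in the DKO under other scalings, nor in HFD Rag1-/- with Actb alone. Cxcl10 was lower on ND and higher on HFD. Over the 20 values, 5 were at least 2-fold higher and 5 at least 2-fold lower, while 41.7% of the array's values in the 4 comparisons were higher and 9.39% lower.

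In ND Rag1-/-, Ifna2 was at least 96.3-fold higher after IRI, with ND Rag1-/- non-IRI at the limit, and Cxcl11 was 3.58-fold higher. Cxcl10 was 2.13-fold lower and Cxcl9 1.38-fold lower, while Ifng was 1.74-fold higher. The Ifng value was below the shift of the whole array, whose 62 measured genes had a median log2 fold of 0.97, and its direction turned (to -0.46 on the log2 scale) when scaled to the array's median Ct. In that scaling Cxcl11 was higher by less than 2-fold (0.58), and Cxcl9 was past 2-fold lower (-1.72). Of the array genes with a value, 50.7% were at least 2-fold higher and 5.33% at least 2-fold lower, so the 2 of 5 members that were higher were no more than the array's share. Cxcl10 stood 72nd and Cxcl9 69th of 75 genes from the highest fold. For scale, the log2 folds of the 5 housekeeping genes had an SD of 0.37 here.

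In HFD Rag1-/-, no member was 2-fold higher after IRI. Ifna2 was 3.75-fold lower and Cxcl9 2.15-fold lower, while Ifng was 1.85-fold lower, Cxcl11 1.41-fold lower and Cxcl10 1.27-fold higher. The Cxcl9 value was within 2-fold with Hsp90ab1 alone (-0.91 on the log2 scale) and when scaled to the array's median Ct (-0.89). The Ifng value was past 2-fold with Actb alone (-1.08). On the array 10.4% of genes were at least 2-fold higher and 15.6% at least 2-fold lower, with a median log2 fold of -0.25 and a housekeeping SD of 0.31. Ifng, Cxcl9 and Cxcl11 thus all stood lower in the injured liver, below the array's median.

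In ND Rag1-Tbet DKO, Ifna2 was 21.7-fold higher after IRI and Cxcl9 3.86-fold lower. Ifng was 1.56-fold, Cxcl10 1.71-fold and Cxcl11 1.67-fold lower. On the log2 scale the Ifng value was past 2-fold at -1.99 with the references named for this genotype (Nodal, Il9 and Csf1), at -1.92 with the deposited ratios and at -1.16 when scaled to the array's median Ct. In the same order, Cxcl10 (-2.12, -2.05 and -1.29) and Cxcl11 (-2.09, -2.01 and -1.26) were past 2-fold lower too. Ifng and the ligands went against the array. Of the array 50.0% was at least 2-fold higher and 11.2% at least 2-fold lower (median log2 fold 0.41, housekeeping SD 0.38). Cxcl9 stood 77th of 80 genes. The pool without injury in this comparison was the one with the 2 odd wells.

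In HFD Rag1-Tbet DKO, Ifna2 was 12.6-fold and Cxcl10 7.11-fold higher after IRI, and Cxcl9 was 2.23-fold lower. Cxcl11 was 1.74-fold lower with Actb and Hsp90ab1. It was past 2-fold lower with the references named for this genotype (-1.49 on the log2 scale). So it was with the deposited ratios (-1.68) and when scaled to the array's median Ct (-2.11). Ifng was 1.19-fold higher with Actb and Hsp90ab1 but lower with 3 other scalings, to -1.06 on the log2 scale when scaled to the array's median Ct. The array had 55.8% of genes at least 2-fold higher and 5.19% at least 2-fold lower (median log2 fold 0.71, housekeeping SD 0.17). Cxcl9 and Cxcl10, neighbours on the chromosome, thus parted by 15.9-fold between these 2 pools.

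**Figure D2:**
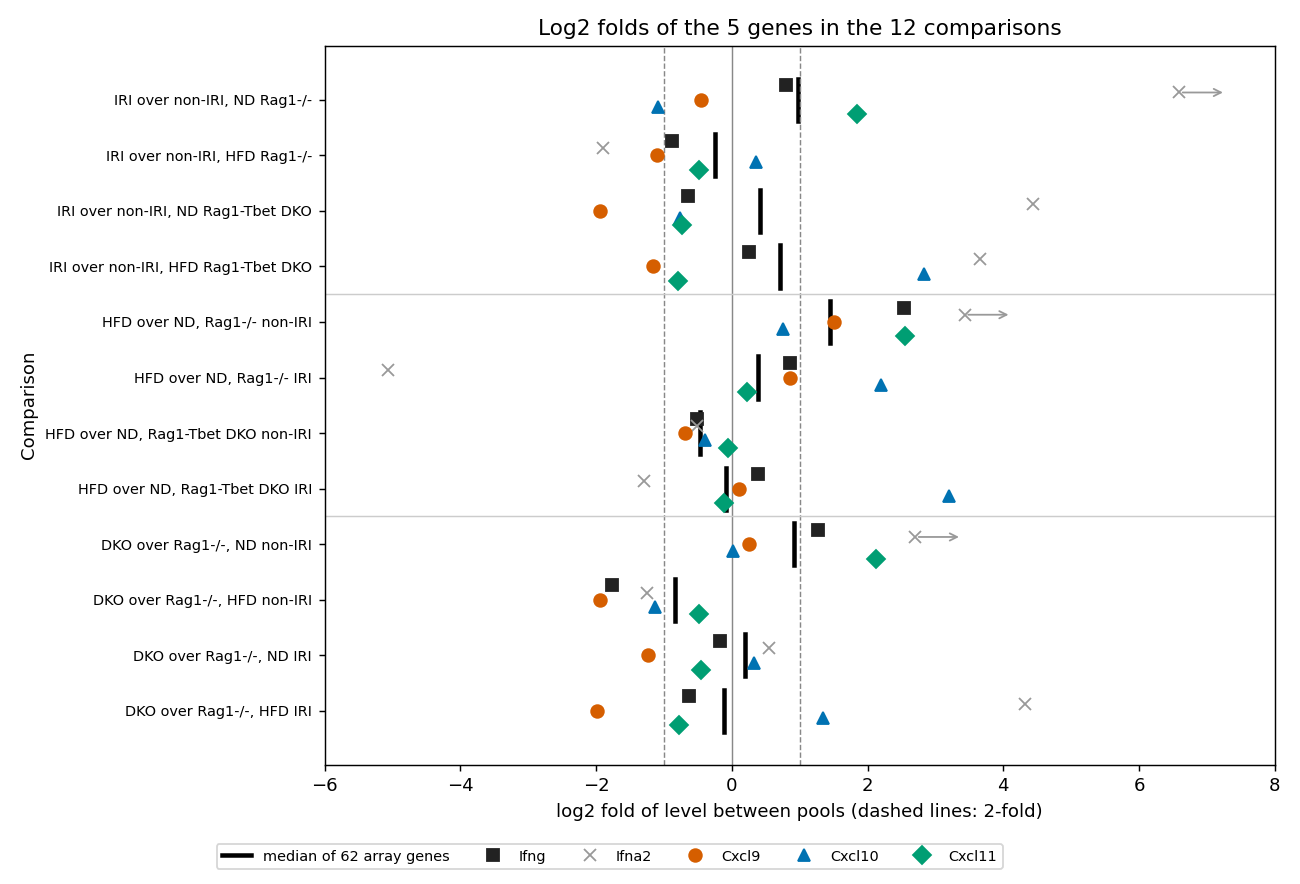
Log2 fold of the level between 2 pools (x axis) for the 5 genes in the 12 comparisons (y axis), with the median of the 62 measured array genes as a black bar and dashed lines at 2-fold. Arrows mark lower bounds, where Ifna2 was at the limit in the second pool. After IRI Cxcl9 lay left of the array median in all 4 comparisons, and Cxcl10 lay farthest right among the ligands in HFD Rag1-Tbet DKO.

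The macrophage and monocyte products fixed as markers (Il1b, Tnf, Ccl3, Ccl4 and Il10) were higher after IRI in this genotype. All 5 were at least 2-fold higher after IRI in HFD Rag1-Tbet DKO (median log2 fold 3.03) and all 5 in ND Rag1-Tbet DKO (median 1.84), where Cxcl10 was not higher. In Rag1-/-, 3 of 5 were higher on ND and 0 of 5 on HFD. The products of NK cells and ILC1s (Xcl1, Ccl5, Fasl and Ltb) were higher after IRI in 1 of 4 cases in ND Rag1-/-, 0 of 4 in HFD Rag1-/- (2 lower), 2 of 4 in ND DKO and 3 of 4 in HFD DKO. Of all array genes, 50.7% were at least 2-fold higher after IRI in ND Rag1-/- and 10.4% in HFD Rag1-/-. In DKO the shares were 50.0% on ND and 55.8% on HFD. None of these markers was at the limit in any of the 8 pools. Their part in the result was not tested.

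The second comparison asked what HFD did with genotype and injury held. In the uninjured Rag1-/- liver Ifng, Ifna2, Cxcl9 and Cxcl11 were at least 2-fold higher on HFD, as were 71.4% of the array genes. Cxcl10 was 1.69-fold higher there. In the injured livers Cxcl10 was past 2-fold higher on HFD in both genotypes, as were 28.6% of the array genes in Rag1-/- and 8.75% in DKO. Over the 20 values, 6 were at least 2-fold higher and 2 at least 2-fold lower, against 28.4% and 16.3% of the array's values.

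In uninjured Rag1-/- liver, Ifng was 5.78-fold, Cxcl11 5.86-fold and Cxcl9 2.83-fold higher on HFD, and Ifna2 was at least 10.8-fold higher. Cxcl10 was 1.69-fold higher. The whole array was higher in this comparison: 71.4% of genes were at least 2-fold higher and 1.30% at least 2-fold lower, with a median log2 fold of 1.44 and a housekeeping SD of 0.51. The 4 of 5 members that were higher therefore follow the array's share. Ifng (16th) and Cxcl11 (15th of 77) stood above the median of the array, whereas Cxcl9 (log2 fold 1.50) was near it. When scaled to the array's median Ct, Ifng (0.61) and Cxcl11 (0.63) were higher by less than 2-fold, and Cxcl9 turned to -0.42 and Cxcl10 to -1.16 on the log2 scale.

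The genes that induce interferon-gamma moved the same way here. Il12a and Il12b (the subunits of interleukin-12), Il15, Il18 and Il27 were at least 2-fold higher in 5 of 5 cases, led by Il12a (log2 fold at least 4.50), Il27 (2.76) and Il12b (2.67). Of the other interferon-inducible genes, Tnfsf10, Tnfsf13b, Il15 and Il27, 4 of 4 were higher (median log2 fold 2.25). Xcl1, a chemokine of NK cells, was 20.4-fold higher, and the NK cell and ILC1 products were higher in 4 of 4 cases (median 2.29), the macrophage and monocyte products in 4 of 5 (median 1.60). The liver genes Hc (log2 fold 1.06) and Thpo (1.04) were higher as well, and 71.4% of the array was at least 2-fold higher. The part of these markers in the result was not tested.

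In injured Rag1-/- liver the pattern was another. Cxcl10 was 4.58-fold higher on HFD, 6th of 77 genes, and Ifna2 33.5-fold lower, the lowest of the 77. Ifng was 1.80-fold, Cxcl9 1.81-fold and Cxcl11 1.16-fold higher. The array had 28.6% of genes at least 2-fold higher and 11.7% at least 2-fold lower (median log2 fold 0.39, housekeeping SD 0.11). Of the NK cell and ILC1 products 3 of 4 were higher (median 1.29) and of the macrophage and monocyte products 2 of 5 (median 1.00), and their part was not tested.

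In uninjured Rag1-Tbet DKO liver no member was past 2-fold on HFD in either direction with Actb and Hsp90ab1. Ifng was 1.42-fold, Ifna2 1.43-fold, Cxcl9 1.61-fold, Cxcl10 1.31-fold and Cxcl11 1.03-fold lower, close to the array's median log2 fold of -0.47, and all 5 turned to higher when scaled to the array's median Ct. In that scaling Cxcl11 was past 2-fold (1.05 on the log2 scale). With the references named for this genotype, Cxcl9 was past 2-fold lower (-1.13). Of the array 6.33% was at least 2-fold higher and 29.1% at least 2-fold lower (housekeeping SD 0.30). The diet values of the uninjured DKO rest on the pool with the 2 odd wells.

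In injured Rag1-Tbet DKO liver, Cxcl10 was 9.22-fold higher on HFD, the third highest of 80 genes, and Ifna2 was 2.45-fold lower. Ifng was 1.31-fold and Cxcl9 1.08-fold higher, and Cxcl11 1.08-fold lower. On the array 8.75% of genes were at least 2-fold higher and 22.5% at least 2-fold lower, with a median log2 fold of -0.08 and a housekeeping SD of 0.34. Cxcl10 was thus higher on HFD after injury with and without T-bet, while Ifng was less than 2-fold apart in both. The 4 NK cell and ILC1 products were within 2-fold (0 higher, 0 lower), and of the 5 macrophage and monocyte products 0 passed 2-fold upward and 1 downward (median log2 fold 0.45), with Ccl4 at 0.98 and Ccl3 at 0.65. The part of these markers in the result was not tested.

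The third comparison asked what the additional loss of T-bet went with, at the same diet and injury. Over the 20 values, 5 were at least 2-fold higher in DKO and 6 at least 2-fold lower, against 30.3% and 20.7% of the array's values. Cxcl9 made 3 of the 6 lower values, and Ifng was lower past 2-fold in 1 of the 4 comparisons.

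In the uninjured liver on ND, Ifng was 2.41-fold, Cxcl11 4.35-fold and Ifna2 at least 6.5-fold higher in DKO, while Cxcl9 (1.19-fold higher) and Cxcl10 (1.01-fold higher) hardly differed. When scaled to the array's median Ct the Ifng value turned to -0.25, Cxcl9 to -1.27 and Cxcl10 to -1.51 on the log2 scale. Cxcl11 was then higher by less than 2-fold (0.60). With Gapdh added to the 2 references, Ifng was just within 2-fold (0.99). The array had 45.6% of genes at least 2-fold higher and 8.86% at least 2-fold lower (median log2 fold 0.91, housekeeping SD 0.58), and Il15 (log2 fold 1.51) and Tnfsf10 (1.57), the death ligand TRAIL, were higher as well, while the interleukin-12 subunit gene Il12b was 6.82-fold lower. This comparison too rests on the pool with the 2 odd wells.

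In the uninjured liver on HFD, 4 of the 5 genes were past 2-fold lower in DKO. Ifng was 3.40-fold, Cxcl9 3.82-fold, Ifna2 2.37-fold and Cxcl10 2.21-fold lower, and Cxcl11 was 1.39-fold lower. The array moved the same way, with 54.5% of genes at least 2-fold lower and 1.30% at least 2-fold higher (median log2 fold -0.84, housekeeping SD 0.30). When scaled to the array's median Ct, Ifng (-0.28) and Cxcl9 (-0.45) stayed lower by less than 2-fold, while Ifna2 turned to 0.24, Cxcl10 to 0.34 and Cxcl11 to 1.01 on the log2 scale. The NK cell and ILC1 products were all lower, 4 of 4, with a median log2 fold of -3.45. Among them Fasl, a death ligand, was 15.1-fold, Xcl1 14-fold and Ccl5, a chemokine of cytotoxic lymphocytes, 8.49-fold lower. The interferon-gamma inducers were lower in 3 of 5 cases and the macrophage and monocyte products in 2 of 5 (median -0.66). The part of these markers in the result was not tested.

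In the injured liver on ND, Cxcl9 was 2.36-fold lower in DKO, 76th of 80 genes, and no other member was past 2-fold. With Actb alone Cxcl9 was just within 2-fold (-0.99 on the log2 scale). When scaled to the array's median Ct, Cxcl11 was past 2-fold lower too (-1.24). Ifng was 1.13-fold lower, with the direction turned by Actb alone as reference, and Cxcl11 was 1.38-fold lower. Ifna2 was 1.46-fold and Cxcl10 1.26-fold higher, both lower when scaled to the array's median Ct. Of the array, 42.5% was at least 2-fold higher and 8.75% at least 2-fold lower (median log2 fold 0.20, housekeeping SD 0.31). Of the macrophage and monocyte products 4 of 5 were higher and 1 was lower (median 2.21), and of the NK cell and ILC1 products 2 of 4 were higher and 1 was lower (median 0.64). Their part in the result was not tested.

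In the injured liver on HFD the ligands went opposite ways. Cxcl9 was 3.97-fold lower in DKO, 73rd of 78 genes, and Cxcl10 2.53-fold higher, while Ifna2 was 20-fold higher. Ifng was 1.55-fold and Cxcl11 1.72-fold lower. The array had 30.8% of genes at least 2-fold higher and 11.5% at least 2-fold lower (median log2 fold -0.11, housekeeping SD 0.20). Of the NK cell and ILC1 products 2 of 4 were lower and 1 was higher (median -1.01), while 3 of 5 macrophage and monocyte products were higher (median 1.44). Their part in the result was not tested. The comparisons above share pools, so that they are not independent of each other.

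How far the ligands followed Ifng can be read without any reference gene, as the number of cycles by which a ligand came up before Ifng in the same pool. A ligand that followed Ifng in full would keep 1 distance in all 8 pools. Cxcl11 came nearest to that of the 3 ligands. It came up before Ifng by 1.74, 2.78, 1.76 and 2.15 cycles in the Rag1-/- pools (ND non-IRI, ND IRI, HFD non-IRI, HFD IRI) and by 2.59, 2.49, 3.05 and 2.00 cycles in the DKO pools in the same order. The SD of this distance was 0.48 cycles, 5th smallest of 61 array genes, whose median SD was 0.92, and it was 14th without HFD Rag1-/- non-IRI, the pool with the most Ifng. The liver gene Thpo had an SD of 0.59 and Hc of 0.66 from Ifng, so these hepatocyte genes kept their distance from Ifng nearly as well.

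Cxcl9 came up before Ifng by 4.52, 3.26, 3.49 and 3.27 cycles in the Rag1-/- pools in that order, and by 3.50, 2.19, 3.32 and 1.91 cycles in the DKO pools. Its SD was 0.81 cycles, 26th of the 61 genes, near the middle of the array. Seen from Cxcl9, Ifng was nonetheless the closest of the 61 genes, since most genes lay much farther from Cxcl9 (median SD 1.40), but it was 8th without HFD Rag1-/- non-IRI. Next were Ccl5 (0.83), a chemokine of cytotoxic lymphocytes, and Bmp7 (0.84), a growth factor of the BMP family. The distance was smaller in each of the 4 IRI pools (1.91 to 3.27) than in each of the 4 non-IRI pools (3.32 to 4.52), with a narrow gap between the groups. Of the 61 genes 1.64% parted in this direction and 8.20% in the other, and Cxcl9 was the 1 gene of the first kind. Cxcl9 thus stood lower against Ifng after IRI, in Rag1-/- by 2.39-fold on ND and 1.16-fold on HFD, and in DKO by 2.48-fold on ND and 2.66-fold on HFD.

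Cxcl10 had the largest SD of the 3 ligands, through 1 pool. It came up before Ifng by 8.60, 6.71, 6.83 and 8.06 cycles in the Rag1-/- pools and by 7.34, 7.21, 7.45 and 10.03 cycles in the DKO pools. The SD was 1.10 cycles, 39th of the 61 genes, and hardly below the SD of its level against Actb and Hsp90ab1 (1.14). Without HFD Rag1-Tbet DKO IRI the SD of Cxcl10 was 0.67 and that of Cxcl9 0.68, with Cxcl11 at 0.50, so the order of Cxcl9 and Cxcl10 rests on that pool. For comparison, taking Ifng off lowered the SD of Cxcl9 from 1.05 to 0.81 and that of Cxcl11 from 0.79 to 0.48. Against Ifng, Cxcl10 was 5.98-fold higher after IRI in HFD DKO and 7.06-fold higher on HFD than on ND in injured DKO, and it was 3.71-fold lower after IRI in ND Rag1-/-. Cxcl10 came up before Cxcl9 by 3.34 to 5.02 cycles in 7 pools and by 8.12 cycles in HFD Rag1-Tbet DKO IRI, which stood alone.

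**Figure D3:**
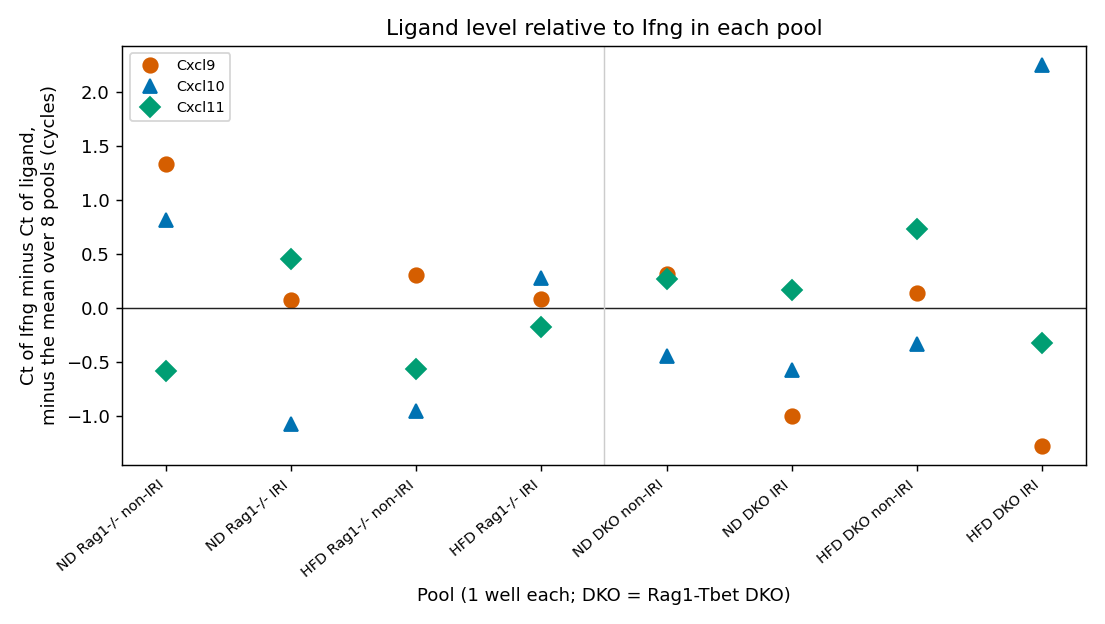
Ct of Ifng minus Ct of the ligand, centred on its mean over the 8 pools (y axis, cycles), for Cxcl9, Cxcl10 and Cxcl11 in each pool (x axis), 1 well per point. A ligand that kept 1 distance from Ifng would lie on the zero line; Cxcl11 lay nearest to it (SD 0.48 cycles), Cxcl9 was lowest in the 2 injured DKO pools, and Cxcl10 was highest in HFD Rag1-Tbet DKO IRI.

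Over the 12 comparisons, the fold of Cxcl11 was at least 2-fold away from that of Ifng in 3, that of Cxcl9 in 7 and that of Cxcl10 in 8. The median array gene was so in 5 of 12, and over all 61 genes and 12 comparisons the share was 41.8%. By this count Cxcl11 stood apart from Ifng less often than the median array gene and Cxcl9 and Cxcl10 more often, whereas by the SD of the distance Cxcl9 (0.81) was slightly below the median gene (0.92). At 3-fold in place of 2-fold the counts were 0 for Cxcl11, 0 for Cxcl9 and 5 for Cxcl10. Ifna2 was at least 2-fold from Ifng in 8. Its distance from Ifng had an SD of 2.68 cycles with the limit taken as its value in 1 pool, and it came up before Ifng only in the 3 IRI pools where it was high, those of ND Rag1-/-, ND DKO and HFD DKO.

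The array genes most like Ifng by the SD of the distance over the 8 pools were Tnfsf10 (0.36 cycles), Il15 (0.36), a cytokine that maintains NK cells and ILC1s, and Cxcl16 (0.43), a chemokine of the receptor CXCR6. Tnfsf10 and Il15 were among the 3 nearest without any 1 of the other pools, but not without HFD Rag1-/- non-IRI. Of these, Il15 had Ct 22.43 in HFD Rag1-/- non-IRI, where it was strongest, and 24.88 in ND Rag1-/- non-IRI, where it was weakest. These 2 pools were the extremes of the Ifng level, but also of the array's median Ct (23.93 and 26.21). Sharing them therefore does not set Il15 apart from the array. By Ct, Ifng was weakest in ND Rag1-Tbet DKO IRI (31.44). Looked up after the values were seen, the genes nearest to Cxcl11 were Il15 (0.24) and Tnfsf10 (0.29), and those nearest to Cxcl10 were Ccl2 (0.89), a chemokine that draws monocytes, Ltb (0.92) and Ccl11 (1.01). Ccl2 had its lowest Ct of all pools, 19.46, in HFD Rag1-Tbet DKO IRI, as Cxcl10 did.

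The lists fixed for the pathway can be read beside the members over each set of 4 comparisons. Of the interferon-gamma inducers, 6 of 19 values were at least 2-fold higher and 3 lower after IRI, 8 higher and 1 lower on HFD, and 4 higher and 5 lower in DKO. Of 16 values of the other interferon-inducible genes, 5 were higher and 1 lower after IRI, 5 higher and 0 lower on HFD, and 4 higher and 3 lower in DKO. Il15 and Il27 stand in both lists. The T cell products Cd40lg, Il2, Il4 and Il17a were looked at although these mice lack T cells. After IRI they were higher in 9 of 12 values and lower in 1, the Cd40lg value that rests on an odd well. Many of their wells were near the limit of detection. The shares of the whole array over the same comparisons were those given with the members, 41.7% higher after IRI, 28.4% on HFD and 30.3% in DKO, and the inducers after IRI and in DKO were below them.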

How the data were processed

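RNA of 8 mouse liver pools, 1 per condition, was measured with a SYBR Green array of 84 cytokine and chemokine genes and 5 housekeeping genes, from 1.25 µg of RNA and 40 PCR cycles. The authors deposited Ct values with a ceiling of 35, which were used here, and a table of normalized values (a ratio to the reference genes, on a linear scale), which served as an alternative and for the gene symbols. A further table of fold regulation held the authors' own comparisons and was not used. Per the methods, levels were normalized with Actb and Hsp90ab1, folds in Rag1-/- with Actb, Hsp90ab1 and Gapdh, and folds in Rag1-Tbet DKO with Nodal, Il9 and Csf1. Deposited DKO ratios lay as much as 0.953 cycles from Ct normalized to the genes so named, and what else was done to them is not given in the sources used here.

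Here log2 folds were differences of minus ΔCt against Actb and Hsp90ab1, a gene at Ct 35 in 1 of the 2 pools gave a bound, and one at Ct 35 in each gave no value. Values past 2-fold were counted without a test, since each condition had 1 pool and 1 well per gene. No interval covers well or mouse error, and Ct carries no read depth. The fold and count steps were tested on simulated Ct values with known folds. The genes checked stayed below the limit, so that the handling of bounds was not tested. Python 3.11.15, pandas 2.3.3, numpy 2.4.6 and matplotlib 3.10.9 were used. Named were the 5 genes, the 3 genes most like Ifng and Cxcl9 by the SD of the Ct distance, reference genes where needed, and up to 3 genes per list by the size of their log2 fold; others are marked as chosen later or stand as markers. The members and lists were chosen with earlier results of these data known. Other references, Ct 32 as the limit, a 3-fold threshold and the deposited ratios were tried, and, added later, leaving out single pools.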

Additional observations from a re-analysis of the deposited data

Results flagged for a closer look

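Some values went past 2-fold in opposite directions in conditions that differed in 1 factor. None of these differences was tested, as each rests on single pools, and all values are log2 folds.

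For Ifng, DKO over Rag1-/- was 1.27 in the uninjured ND liver and -1.77 in the uninjured HFD liver. The first of these turned to -0.25 when scaled to the array's median Ct and rests on the ND Rag1-Tbet DKO non-IRI pool.

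For Ifna2, IRI over non-IRI was at least 6.59 in ND Rag1-/- and -1.90 on HFD in the same genotype, against 3.66 on HFD in the DKO. HFD over ND was at least 3.43 in uninjured and -5.06 in injured Rag1-/- liver. DKO over Rag1-/- was at least 2.70 in the uninjured ND liver, -1.25 in the uninjured HFD liver and 4.32 in the injured HFD liver. All of these rest on wells between Ct 28.64 and the limit.

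For Cxcl10, DKO over Rag1-/- was -1.14 in the uninjured and 1.34 in the injured HFD liver, and the first turned to 0.34 when scaled to the array's median Ct.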

How the results depend on the processing

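No paired analysis was possible because each condition was 1 pool with no replicate number. Of the 20 values after IRI, 5 were lower past 2-fold, 9 with the references named per genotype, 10 when scaled to the array's median Ct, 9 with the deposited ratios and 2 at 3-fold. On HFD, 2 were lower, against 1 at 3-fold and 1 with the deposited ratios. In DKO, 5 were higher and 6 lower, against 3 and 3 at 3-fold, and 2 were higher among the 15 values that do not use the ND Rag1-Tbet DKO non-IRI pool, a setting chosen after seeing the data. Without that pool, 6 of the 15 values were lower in DKO. After IRI 4 of 15 were higher and 4 lower, and on HFD 6 of 15 were higher and 2 lower. In the 9 comparisons without it, Cxcl9 stood at least 2-fold from Ifng in 5, Cxcl10 in 7, Cxcl11 in 3 and Ifna2 in 6. At 3-fold, Cxcl9 stood apart from Ifng in 0 of 12 comparisons in place of 7, Cxcl10 in 5 in place of 8 and Cxcl11 in 0 in place of 3. The SD of the distance from Ifng was smallest for Cxcl11 without any 1 pool, but Cxcl10 fell from 1.10 to 0.67 without HFD Rag1-Tbet DKO IRI, where Cxcl9 had 0.68; without any other pool Cxcl10 stayed above Cxcl9. These settings too were chosen after seeing the data.

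When scaled to the array's median Ct, 4 values past 2-fold changed sign, to -0.25 for Ifng (DKO over Rag1-/-, ND non-IRI), 0.24 for Ifna2 and 0.34 for Cxcl10 (DKO over Rag1-/-, HFD non-IRI) and -0.42 for Cxcl9 (HFD over ND, Rag1-/- non-IRI), all on the log2 scale. No value past 2-fold changed sign under the other settings. Of the 60 log2 folds, 55 stayed within the SD of the housekeeping genes with Actb alone, 55 with Hsp90ab1 alone and 60 with Gapdh added, but 15 when scaled to the array's median Ct. Ct 32 as the limit left 2 values of Ifna2 without a direction. Ct 32 moved most folds of Ifna2, while 3 of them, from wells below Ct 32, stayed as they were.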
